A study of Mus musculus with 6 samples.

Results

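Metalloproteases are zinc-dependent proteases that cut proteins of the extracellular matrix and of the cell surface, and the tissue inhibitors of metalloproteases (TIMPs) block them. The genes described here are the 85 whose symbol in the deposited expression table belongs to the matrix metalloproteases (Mmp, 23 genes), the ADAM proteases (Adam, 33), the ADAMTS proteases (Adamts, 19), the astacin proteases (Bmp1, Tll1, Tll2, Mep1a and Mep1b, 5) or the inhibitors (Timp1 to Timp4 and Reck, 5), of 21740 genes in all. They were chosen by symbol and not by their values, and all 85 were tested, with no filter on low values. They were measured in the uterine luminal epithelium of the mouse, the cell sheet that lines the uterine cavity and that the embryo attaches to, in the preimplantation uterus of gestation day 3.5 (D3.5) and in the postimplantation uterus of gestation day 4.5 (D4.5). The comparison asked which of these genes differ in this epithelium across the onset of implantation.

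All animals were wild type females of a mixed C57BL6 and 129svj background, 2 to 4 months old, that had not been mated before and were then mated naturally with wild type males, with the day of the vaginal plug counted as D0.5. The epithelium was freed with dispase and gentle scraping, so it is an enriched sheet and not a sorted population. RNA was hybridised to one-colour Affymetrix arrays, 3 for D3.5 and 3 for D4.5, with no other treatment or genotype. Nothing in the labels ties an array to its own animal, and the spread behind each p-value may therefore be technical. The day and any difference in array processing cannot be told apart.

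By background knowledge, metalloproteases are made as inactive precursors in which a propeptide covers the zinc site, and they become active when proprotein convertases, plasmin or other proteases remove it. MMPs mainly cut collagens, laminins and other matrix proteins, ADAM proteases release growth factors and receptors from the cell surface, ADAMTS proteases cut proteoglycans and procollagens, and astacins process procollagens and the BMP antagonist chordin. In the implanting mouse uterus the matrix beneath the epithelium is rebuilt, and the balance of these proteases with TIMPs is known chiefly from the stroma, the decidua and the trophoblast.

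Levels below are log2(intensity + 16) after quantile normalization, with means ± SD (n = 3 per day), and a change is the difference in this level, D4.5 less D3.5, with its SE from the limma fit, whose Benjamini-Hochberg adjusted p is given. The number of arrays limits the precision. The median deposited intensity of an array lay between 108.6 and 118.4 for D3.5 but between 78.9 and 80.2 for D4.5, and without normalization the median change of all genes was -0.40, against -0.07 with it. As a reference for low signal, 1340 genes of odour, taste and pheromone receptors, not known to act in this tissue, had 95% of their mean levels at or under 6.55 (D3.5) and 6.36 (D4.5) (called receptor level below), and 95% of their changes between -0.59 and 0.33. Of all genes, 44.4% passed an adjusted p of 0.05 in either direction (18.0% higher and 26.4% lower on D4.5), and 5.50% passed it with a change of at least 2-fold (3.04% higher and 2.46% lower). All 14 epithelial marker genes lay above receptor level on every array, among them Cdh1, the adhesion protein E-cadherin (11.36 on D3.5 and 11.41 on D4.5), and Krt8, a keratin of simple epithelia (11.72 and 11.54).

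Metalloprotease genes of this epithelium changed in a few members by a large amount. Mmp7, which encodes the epithelial protease matrilysin, and Tll1, a tolloid-like astacin, rose by 4.48 and 4.33 on the log2 scale (3.88 and 3.81 with a constant of 64), Adamts9 rose 3.48-fold and Adam28 2.27-fold. Timp3, a matrix-bound inhibitor, fell 3.65-fold, Adamts16 fell 3.43-fold and Adamts6 3.01-fold. These 7 members passed both the adjusted p and the 2-fold criterion (4 higher and 3 lower, 8.24% of the members against 5.50% of all genes). With the adjusted p alone, 9 members rose and 23 fell, and 53 did not pass. The members that passed were 37.6% of the 85, beside 44.4% of all genes, and their median change of -0.11 lay close to that of all genes (-0.07), so the number of calls does not set the group apart. In the values as deposited, without normalization, 4 rose and 65 fell, 3 and 6 of them by at least 2-fold, beside 11.4% of all genes higher and 61.8% lower with the same values.

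**Figure D1:**
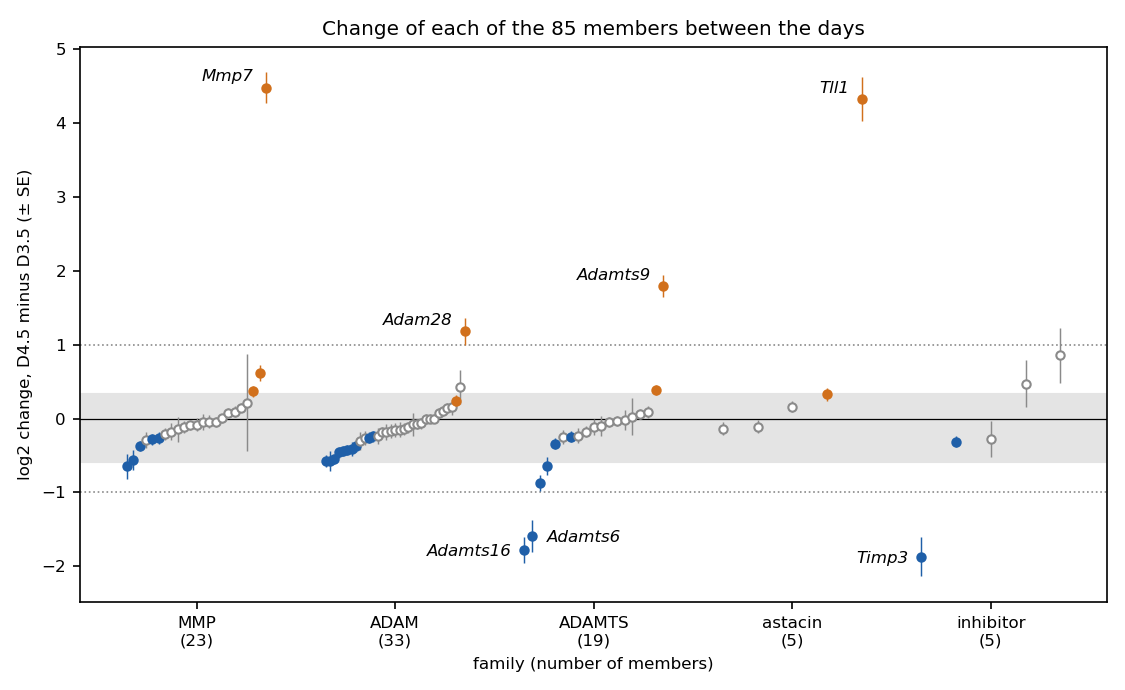
Log2 change (D4.5 minus D3.5, with SE bars) of each of the 85 members, ordered by size within its family. Orange and blue points passed the adjusted p (higher and lower on D4.5), open grey points did not, the grey band holds 95% of the changes of chemosensory receptor genes, and dotted lines mark 2-fold. Most members lie inside the band, and the 7 named ones lie beyond 2-fold.

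Many of the 85 genes had a low signal. On both days 40 of them lay at receptor level, 22 of the 33 ADAM genes, 12 of the 23 MMP genes, 3 of the 19 ADAMTS genes, 2 astacins and 1 inhibitor. Of these 40, 13 passed the adjusted p (1 higher and 12 lower, 32.5%), none by 2-fold, and their changes ran from -0.58 to 0.37. Of all genes, 6999 lay at receptor level on both days, and 2133 of them passed (381 higher and 1752 lower). Among the chemosensory receptor genes themselves 30.1% passed, so the count of 13 does not set these members apart. Of the 45 members above receptor level on at least 1 day, 8 rose, 11 fell and 26 did not pass. Beside them, of 14741 such genes in all, 3533 rose, 3985 fell and 7223 did not pass. Of all 32 members that passed, 14 had a change outside the range of the receptor genes (8 higher and 6 lower), and the other 18 are not set apart from that range by their adjusted p alone. None of the 32 had values that overlapped between the days. Some members that did not pass, such as Mmp17 and Adam2, had no overlap either, so this does not set the calls apart.

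**Figure D2:**
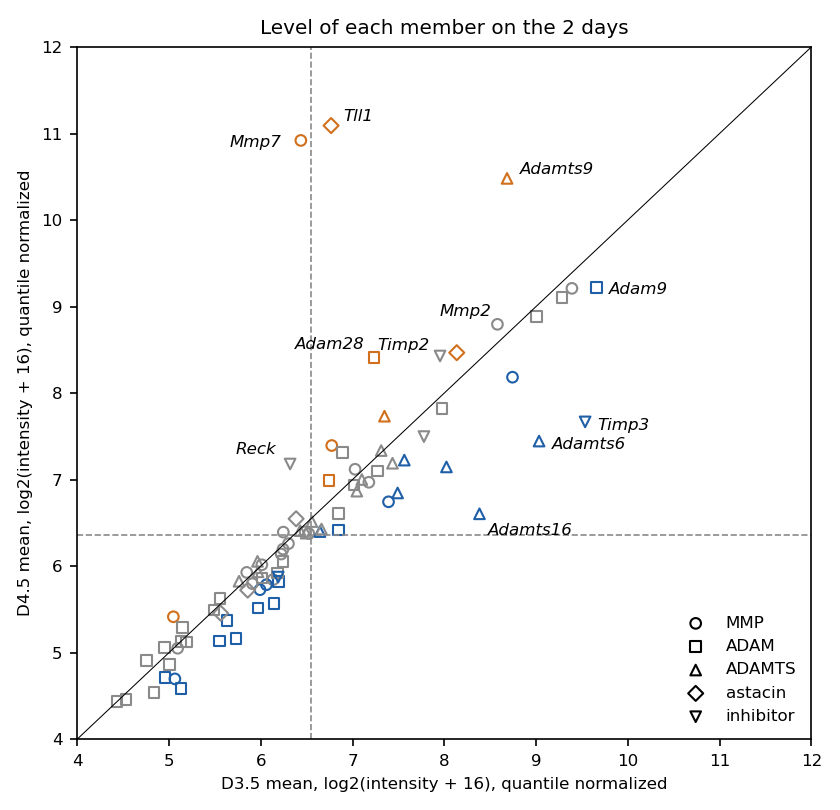
Mean level of each member on D3.5 (horizontal) and D4.5 (vertical), both as log2(intensity + 16) after quantile normalization, with 1 symbol shape per family and colours for genes higher (orange), lower (blue) or not called (grey) on D4.5. Dashed lines mark receptor level (6.55 and 6.36) and the solid line equal levels, and Mmp7 and Tll1 stand far above that line, from near receptor level on D3.5 to about 11 on D4.5.

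Mmp7 showed the largest change of the 85 genes. Its product, matrilysin, is a small secreted MMP that is made by glandular and surface epithelia and cuts matrix proteins, pro-defensins and several cell surface proteins. Deposited intensities of Mmp7 were 90.2, 96.7 and 73.9 in D3.5 replicates 1 to 3 and 2304, 2540 and 1373 in D4.5 replicates 1 to 3. After normalization they were 6.40, 6.64 and 6.27 on D3.5 and 11.11, 11.22 and 10.43 on D4.5. The D3.5 arrays lay close to receptor level and every D4.5 array far above it, with replicate 3 the lowest of its day. The change was 4.48 ± 0.21 on the log2 scale (adjusted p = 1.47e-05). As its mean D3.5 level was not above receptor level, no exact fold is given, and the constant under the logarithm moved this size, to 4.75 with a constant of 1 and to 3.88 with 64. Markers of the uterine gland, a list of 8 genes, had mean levels of 6.84, 6.70 and 6.69 on D3.5 and 6.88, 6.91 and 6.98 on D4.5 (3 rose and 3 fell). Spink3 (1.53), Lif (0.63) and Prss29 (0.52) rose, and Sox9 (-0.46), Cxcl15 (-0.45, at receptor level on both days) and Foxa2 (-0.40) fell. The part of these markers in the rise of Mmp7 was not tested.

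Of the other 22 MMP genes, 2 rose and 5 fell. With Mmp7 included, 34.8% of the MMP genes were called, beside 44.4% of all genes. Mmp11, the stromelysin 3 gene, stood at 6.90, 6.90 and 6.53 on D3.5 and at 7.36, 7.43 and 7.39 on D4.5, so that all D4.5 arrays were higher (0.62 ± 0.11, adjusted p = 0.00375; in the values as deposited 0.28, adjusted p = 0.0566). Mmp28 (epilysin), a secreted MMP of epithelia, fell by 0.65 ± 0.16 on the log2 scale (adjusted p = 0.0166), and leaving out D4.5 replicate 2 ended that call (adjusted p = 0.0591). Mmp15, a membrane-anchored MMP, fell from 8.74 ± 0.25 to 8.18 ± 0.12 (adjusted p = 0.012), but with median centring its change was -0.19 and did not pass. Mmp8, the neutrophil collagenase gene, rose by 0.37 ± 0.07 at receptor level on both days, but without normalization its change was -0.018. The remaining falls were those of Mmp1b, Mmp12 and Mmp20, also at receptor level, with changes of -0.37, -0.26 and -0.28. Mmp12 and Mmp20 lost their calls when single arrays were left out (4 and 3 of the 6).

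Mmp14, the membrane-anchored MMP that activates the precursor of Mmp2, was measured at 9.39 ± 0.15 on D3.5 and 9.21 ± 0.17 on D4.5 (-0.18 ± 0.11, adjusted p = 0.232). With median centring the change of Mmp14 was 0.28 (adjusted p = 0.114), so no direction is given for it. Its values of 9.47, 9.22 and 9.49 overlapped those of D4.5 (9.41, 9.08 and 9.14). Mmp24 (-0.21 ± 0.08) and Mmp23 (0.09 ± 0.07) lay near 7 on both days and did not pass. Mmp24 is a membrane-anchored MMP listed on 2 rows, of which the higher of each day changed by 0.03 (adjusted p = 0.927) and the lower by -0.44 (adjusted p = 0.0208). Mmp9 (gelatinase B), a protease best known from leukocytes and trophoblast, stood at 6.48 ± 0.05 and 6.40 ± 0.08, close to receptor level, and did not pass (adjusted p = 0.353). Mmp16 (-0.29), Mmp19 (-0.15), Mmp3 (-0.11), Mmp27 (-0.08), Mmp21 (-0.05), Mmp1a (-0.04), Mmp25 (-0.04), Mmp10 (0.00), Mmp13 (0.08) and Mmp17 (0.15) did not pass either. Their means ran from 5.05 to 6.52, and without normalization Mmp10, Mmp13, Mmp17 and Mmp23 had negative changes that passed (-0.50, -0.41, -0.35 and -0.26).

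Mmp7 lies at one end of a run of 10 neighbouring Mmp genes on chromosome 9, in the order Mmp13, Mmp12, Mmp1b, Mmp3, Mmp1a, Mmp10, Mmp8, Mmp27, Mmp20 and Mmp7 as ordered by RefSeq on GRCm38.p6. The 9 neighbours were at receptor level on both days, with changes between -0.37 and 0.37, while Mmp7 changed by 4.48. The symbols Mmp1a and Mmp1b name related copies. RefSeq promoter sequences (GRCm38.p6) were matched by symbol for 52 of the 85 members, with 57 start sites, and the 250 bases before each start were searched on both strands. The letters of the AP-1 element, TGANTCA, which read the same on both strands, were found for 8 of the 10 genes of the run and for 3 of the other 42 members, beside 6.75% of 32851 promoters of the same length. The letters TATAAA were found for 7 of the 10 and 5 of the 42, beside 12.4% of all promoters. The letters AGGAAG of an ETS element were found for 6 of the 10 and 14 of the 42 (29.5% of all promoters) and GGGCGG of a GC box for 0 of the 10 and 22 of the 42 (32.7%). In these promoters 0 matches of one motif overlapped those of another. The 100 bases before the start are shown for 7 genes of the run, to set the promoter of the gene that rose beside those of neighbours at receptor level, with TGANTCA and TATAAA in capitals.

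Mmp7, chr9:7691990-7692089, + strand: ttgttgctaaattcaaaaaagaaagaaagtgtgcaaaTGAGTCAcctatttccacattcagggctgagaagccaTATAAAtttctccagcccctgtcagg
Mmp20, chr9:7628131-7628230, + strand: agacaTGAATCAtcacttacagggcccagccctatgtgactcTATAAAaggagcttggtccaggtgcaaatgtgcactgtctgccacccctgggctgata
Mmp10, chr9:7502242-7502341, + strand: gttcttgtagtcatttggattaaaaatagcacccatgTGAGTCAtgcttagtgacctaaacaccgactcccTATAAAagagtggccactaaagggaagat
Mmp1a, chr9:7464041-7464140, + strand: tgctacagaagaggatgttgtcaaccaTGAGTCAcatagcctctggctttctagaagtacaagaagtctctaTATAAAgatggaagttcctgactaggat
Mmp3, chr9:7445722-7445821, + strand: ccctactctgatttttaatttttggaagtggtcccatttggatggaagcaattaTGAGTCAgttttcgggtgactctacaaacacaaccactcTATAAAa
Mmp1b, chr9:7388027-7388126, - strand: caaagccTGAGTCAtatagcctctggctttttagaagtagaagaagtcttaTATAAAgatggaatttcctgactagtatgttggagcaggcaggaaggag
Mmp13, chr9:7272414-7272513, + strand: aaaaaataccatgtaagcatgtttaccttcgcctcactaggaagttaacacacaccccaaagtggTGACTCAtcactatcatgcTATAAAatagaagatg

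At the first of the 2 starts listed for Mmp7 the AP-1 letters begin 63 bases before the start and TATAAA 26 bases and again 123 bases before it, and at the other start neither was found. Mmp10, with the AP-1 letters also 63 bases before its start, was measured at 6.01 on both days. The letters are thus shared by Mmp7, which rose, and by genes that did not rise, and a match is a description of the sequence, not a site of binding. The other gene of the run with TGANTCA was Mmp12, at one of its 2 listed starts.

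Among the astacins, Tll1 rose almost as much as Mmp7. Its product cuts chordin and procollagens. Its values were 6.70, 7.44 and 6.15 in the D3.5 arrays and 10.86, 11.29 and 11.12 in the D4.5 arrays. The D3.5 arrays spread over 1.29, with replicate 2 the highest, and all D4.5 arrays were higher than any of them. Tll1 changed by 4.33 ± 0.30 (adjusted p = 6.47e-05), by 4.69 without D3.5 replicate 2 and by 3.81 with a constant of 64. Its mean D3.5 level of 6.77 lay close to receptor level (6.55), and D3.5 replicate 3 lay under it, so no exact fold is given.

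Bmp1, the procollagen C-proteinase gene to which Tll1 is related, was measured at 8.16, 8.22 and 8.03 on D3.5 and at 8.60, 8.43 and 8.37 on D4.5. Bmp1 rose by 0.33 ± 0.09 (adjusted p = 0.0211), a small change whose call was lost when D3.5 replicate 3, D4.5 replicate 1 or D4.5 replicate 2 was left out (adjusted p from 0.0569 to 0.0689). Tll2 (0.16 ± 0.08, adjusted p = 0.118) did not pass and had a change of -0.33 in the values as deposited. The meprin genes Mep1a (-0.11 ± 0.09) and Mep1b (-0.14 ± 0.09), whose products are known from the gut and kidney, were at receptor level on both days and did not pass. The promoter of Tll1 is shown with the letters AGGAAG in capitals, as the promoter of the member with the largest rise outside the run on chromosome 9, and it holds neither TGANTCA nor TATAAA in its 250 bases before the start.

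Tll1, chr8:64206009-64206258, - strand: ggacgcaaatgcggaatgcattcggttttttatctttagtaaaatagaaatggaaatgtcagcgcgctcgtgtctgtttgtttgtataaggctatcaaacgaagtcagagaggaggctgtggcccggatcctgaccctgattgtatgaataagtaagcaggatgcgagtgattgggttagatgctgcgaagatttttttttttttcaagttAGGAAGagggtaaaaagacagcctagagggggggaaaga

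**Figure D3:**
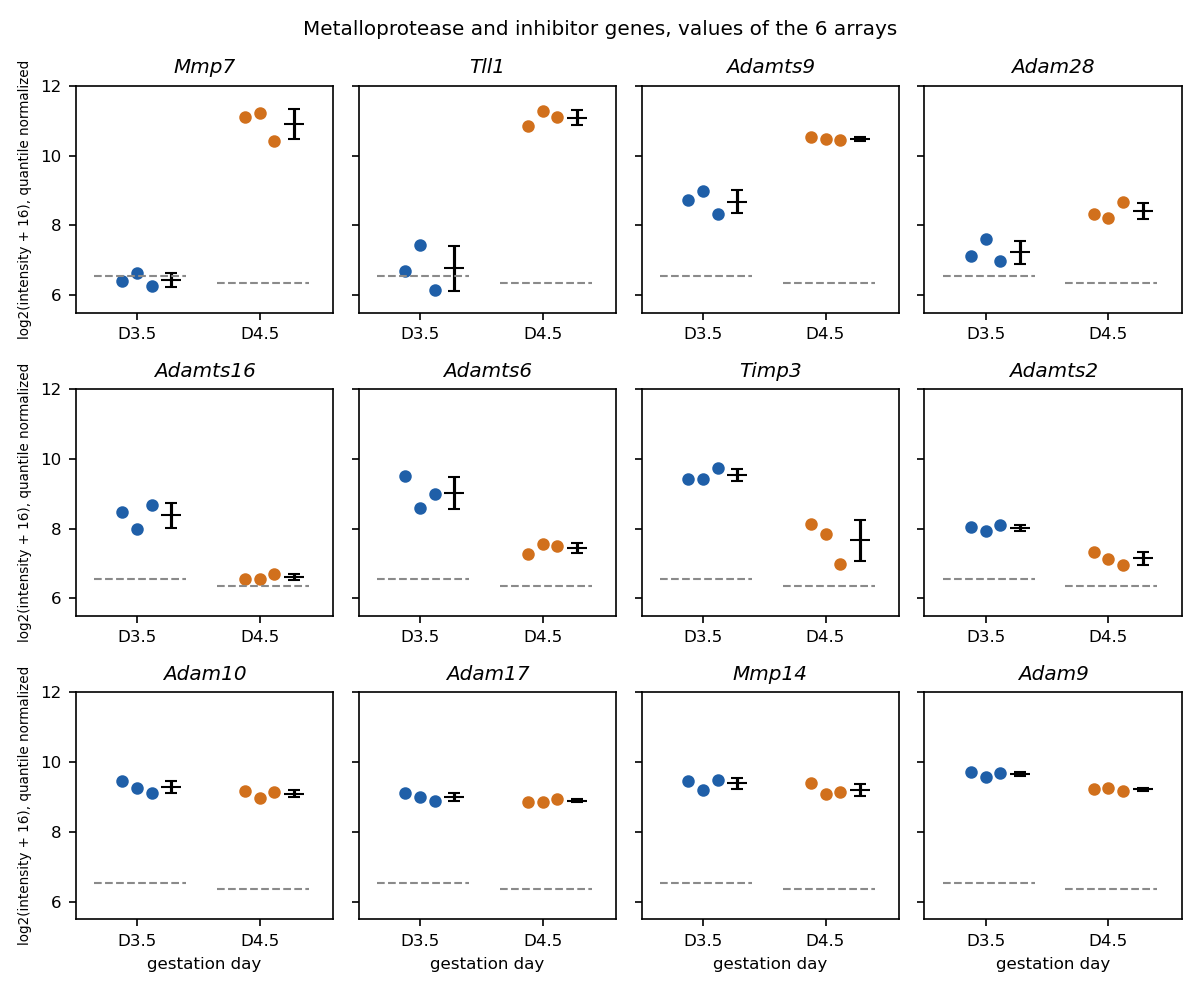
Level in each of the 6 arrays (points; log2(intensity + 16) after quantile normalization), with mean and SD beside them, for the 7 members that changed at least 2-fold, for Adamts2 and for Adam10, Adam17, Mmp14 and Adam9. Blue is D3.5, orange is D4.5 and the dashed line is receptor level of the day, and the days are apart in the upper 8 panels while Adam10, Adam17 and Mmp14 stay near 9 on both days.

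The best known ADAM proteases of the cell surface had a clear signal on both days and moved little. Adam9 stood at 9.66 ± 0.07 on D3.5, Adam10 at 9.28 ± 0.17 and Adam17 at 9.01 ± 0.11. Adam10 and Adam17 are the main sheddases of growth factors, Notch receptors and cytokines. Adam10 was measured at 9.47, 9.26 and 9.12 on D3.5 and 9.17, 8.98 and 9.15 on D4.5, and the days overlapped (-0.18 ± 0.10, adjusted p = 0.188). Adam17 was at 9.11, 9.01 and 8.89 on D3.5 and 8.86, 8.86 and 8.94 on D4.5, again with overlap (-0.12 ± 0.08, adjusted p = 0.246). With median centring both changes were positive and passed (0.28 for Adam10, adjusted p = 0.0357, and 0.32 for Adam17, adjusted p = 0.0147), so no direction is given for either. Adam9 fell by 0.44 ± 0.07 on the log2 scale (adjusted p = 0.00222), but with median centring its change was 0.028.

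Adam28 was the ADAM gene that changed by 2-fold. Its product is a protease with secreted and membrane forms that is known from lymphocytes and the epididymis. Its values were 7.11, 7.60 and 6.98 on D3.5 and 8.33, 8.23 and 8.68 on D4.5, with no overlap. The change was 1.18 ± 0.18, or 2.27-fold (adjusted p = 0.00205), but below 2-fold in the values as deposited (0.99) and with a constant of 64 (0.97). Adam8, known from leukocytes, rose by 0.24 ± 0.08 (adjusted p = 0.0382), a call that was lost when any of 5 of the 6 arrays was left out and whose sign turned in the values as deposited (-0.16). Adam11, a member without an active protease site, fell by 0.43 ± 0.07 (adjusted p = 0.00216). Among ADAM genes above receptor level that did not pass were Adam15 (-0.16 ± 0.09), Adam33 (-0.17 ± 0.09), Adam19 (-0.24 ± 0.11), Adam12 (-0.08 ± 0.15) and Adam4 (0.43 ± 0.23). Adam4 spread widely on D3.5, with 6.29 in replicate 1 and 7.16 and 7.22 in replicates 2 and 3.

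Most of the other ADAM genes are known from the testis and sperm, such as Adam2 and Adam3, which act in fertilization in the mouse. All 22 at receptor level had mean levels of at most 6.24, and 8 of them fell, led in size by Adam21 (-0.58 ± 0.08), Adam6a (-0.57 ± 0.13) and Adam26b (-0.54 ± 0.07). These changes lie within the range of the chemosensory receptor genes. Adam6a and Adam6b, and Adam26a and Adam26b, name closely related copies that probes may not separate.

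ADAMTS proteases changed in both directions, as did all genes. Of the 19 genes 2 rose, 6 fell and 11 did not pass (42.1% called, beside 44.4% of all genes), so the count does not set the family apart. Adamts9, whose product cuts the proteoglycan versican, rose by 1.80 ± 0.15, or 3.48-fold (adjusted p = 0.000163), with values of 8.73, 8.99 and 8.33 on D3.5 and 10.53, 10.47 and 10.44 on D4.5. The D4.5 arrays lay close together, and all were above every D3.5 array. The table lists Adamts9 on 7 rows, and rows that share a symbol are not paired between the days in this table, so the mean over the rows of a symbol was used. Ordered by level within each day, the 7 rows had means from 6.28 to 9.93 on D3.5 and from 7.05 to 11.49 on D4.5, and every rank was higher on D4.5. The size of the change depended on the row used, with 1.56 for the highest row of each day, 0.77 for the lowest and 0.71 for the row with the highest mean over both days, and it passed in each case.

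**Figure D4:**
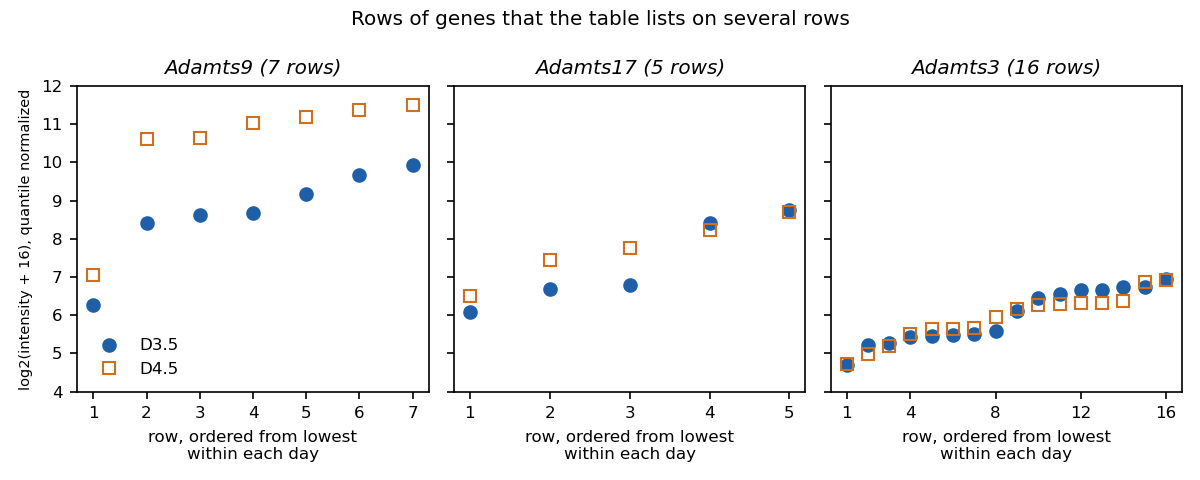
Mean level over the 3 arrays of a day, as log2(intensity + 16) after quantile normalization, of each row listed for Adamts9, Adamts17 and Adamts3, ordered from lowest to highest separately on D3.5 (blue circles) and D4.5 (orange squares). All 7 ranks of Adamts9 are higher on D4.5, the 2 highest ranks of Adamts17 are not, and the 16 ranks of Adamts3 run from 4.69 to 6.94 on D3.5 and from 4.73 to 6.92 on D4.5.

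Adamts16 and Adamts6 fell. Adamts16 was measured at 8.48, 7.98 and 8.69 on D3.5 and 6.55, 6.56 and 6.70 on D4.5, so that it stood just above receptor level on D4.5 (-1.78 ± 0.17, adjusted p = 0.000262). Adamts6 was at 9.51, 8.59 and 9.0 on D3.5 and at 7.27, 7.56 and 7.51 on D4.5 (-1.59 ± 0.21, adjusted p = 0.00116). The days did not overlap for either gene. Adamts2, a procollagen N-proteinase gene, fell from 8.02 ± 0.08 to 7.15 ± 0.19 (-0.88 ± 0.11, adjusted p = 0.000743), and Adamts10, a relative of Adamts6 that acts on fibrillin microfibrils, from 7.49 ± 0.24 to 6.85 ± 0.10 (-0.65 ± 0.12, adjusted p = 0.00538).

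Smaller calls were those of Adamts7 (-0.34 ± 0.07), Adamts18 (-0.25 ± 0.08) and Adamts17 (0.38 ± 0.07). Adamts7 did not pass with median centring (-0.18), and Adamts18 did not pass when any of 4 of the 6 arrays was left out. Adamts17 has 5 rows, and its rise was not found in the highest row of each day (-0.048, adjusted p = 0.647). For the row with the highest mean, which is not paired between the days, the change was -0.53 and passed (adjusted p = 0.00201). Adamts8 was measured on 2 rows, which disagreed. It did not pass as a mean (-0.25 ± 0.09, adjusted p = 0.0609), while its highest row of each day fell by 0.51 and its lowest changed by 0.02. The other procollagen N-proteinase genes, Adamts14 (-0.18 ± 0.07) and Adamts3 (-0.04 ± 0.07, 16 rows), and the proteoglycan-cutting genes Adamts1 (0.02 ± 0.25), Adamts4 (-0.10 ± 0.14) and Adamts5 (0.06 ± 0.07) did not pass.

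Among the 5 inhibitors, Timp3 fell and none rose. Timp3 binds to the matrix and inhibits Adam17 and several ADAMTS proteases as well as MMPs. It was measured at 9.43, 9.43 and 9.74 in the D3.5 arrays and at 8.14, 7.86 and 6.997 in the D4.5 arrays. All D4.5 arrays were below all D3.5 arrays, and they spread over 1.15 with replicate 3 the lowest. The change was -1.87 ± 0.27 (adjusted p = 0.00158), and -1.51 without D4.5 replicate 3. Timp4 also passed (-0.32 ± 0.07, adjusted p = 0.0122), with 6.21, 6.20 and 6.17 on D3.5 and 5.84, 5.79 and 5.99 on D4.5, but it was at receptor level on both days and lost its call without D4.5 replicate 2 (adjusted p = 0.0528). The 250 bases before the start of Timp3, the inhibitor that fell, hold AGGAAG and GGGCGG (the latter on the opposite strand), in capitals.

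Timp3, chr10:86300162-86300411, + strand: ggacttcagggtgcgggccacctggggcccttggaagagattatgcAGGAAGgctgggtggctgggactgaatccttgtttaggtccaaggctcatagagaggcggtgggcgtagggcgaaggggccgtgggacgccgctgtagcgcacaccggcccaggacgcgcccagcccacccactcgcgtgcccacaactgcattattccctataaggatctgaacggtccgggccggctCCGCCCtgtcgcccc

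Timp1, Timp2 and Reck varied between arrays of the same day and did not pass. Timp1, a secreted inhibitor, was at 7.19, 8.23 and 7.91 on D3.5 and 7.69, 7.41 and 7.39 on D4.5 (-0.28 ± 0.24, adjusted p = 0.38). Without D3.5 replicate 1 it changed by -0.60 and passed (adjusted p = 0.0158). Timp2, which also takes part in the activation of Mmp2 by Mmp14, was at 8.08, 8.16 and 7.62 on D3.5 and 8.98, 8.65 and 7.65 on D4.5 (0.47 ± 0.32, adjusted p = 0.266). Reck, a membrane-anchored inhibitor, was at 6.15, 6.60 and 6.20 on D3.5 and 8.10, 6.97 and 6.47 on D4.5 (0.86 ± 0.37, adjusted p = 0.0971). In both genes D4.5 replicate 1 was the highest array of all 6 and replicate 3 the lowest of its day, and without D4.5 replicate 3 both passed (Timp2 by 0.85, adjusted p = 0.0149, and Reck by 1.20, adjusted p = 0.0282).

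Mmp2 (gelatinase A), a protease best known from fibroblasts, varied most of all 85 genes between arrays of D4.5. It was measured at 7.96, 9.46 and 8.32 on D3.5 and at 9.95, 9.10 and 7.33 on D4.5, and the days overlapped fully (0.22 ± 0.66, adjusted p = 0.811). Leaving out single arrays moved its change between -0.36 (without D4.5 replicate 1) and 0.94 (without D4.5 replicate 3). Markers of the stroma and decidua, a list of 16 genes, were like Mmp2 highest in replicate 2 on D3.5 and fell in the same order of arrays on D4.5, while the 2 lower arrays of D3.5 stood in another order. Their mean level was 7.39, 7.67 and 7.24 on D3.5 and 7.94, 7.47 and 6.85 on D4.5, and their summed normalized intensity ran from 3327 to 5244 on D3.5 and from 2057 to 6185 on D4.5. Of the 16 markers 13 were highest of D4.5 in replicate 1 and lowest in replicate 3, 0 passed the limma test between the days (also 0 at an unadjusted p of 0.05), and Lum, Postn and Prl8a2 were at receptor level on both days. The 8 endothelial markers had means of 6.998, 7.51 and 6.88 on D3.5 and 7.74, 7.22 and 6.58 on D4.5, and the 14 epithelial markers stayed between 10.04 and 10.36 in all arrays. The 12 leukocyte markers (3 rose and 3 fell) had means of 7.10, 7.15 and 6.96 on D3.5 and 7.24, 6.96 and 6.82 on D4.5. In such samples, more cells of another type and more RNA per cell cannot be told apart.

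Of the 85 members, 12 had this order of arrays (highest on D3.5 in replicate 2, and from high to low in D4.5 replicates 1, 2 and 3), or 14.1% beside 6.10% of all genes. In 4 of them, Mmp2, Timp2, Reck and Adamts1, D4.5 replicate 1 was also at least 2-fold above replicate 3 (4.71% beside 0.62% of all genes). Adamts1 was at 7.29, 7.55 and 7.10 on D3.5 and 7.92, 7.20 and 6.89 on D4.5. Timp3 was lowest in D4.5 replicate 3 as well, and stood at 8.14 in D4.5 replicate 1. The part of the stromal markers in the changes of these members was not tested. For Mmp7, Tll1 and Adamts9 the fold changes kept between 4.27 and 4.67, 4.04 and 4.69, and 1.62 and 1.95 on the log2 scale whichever array was left out.

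**Figure D5:**
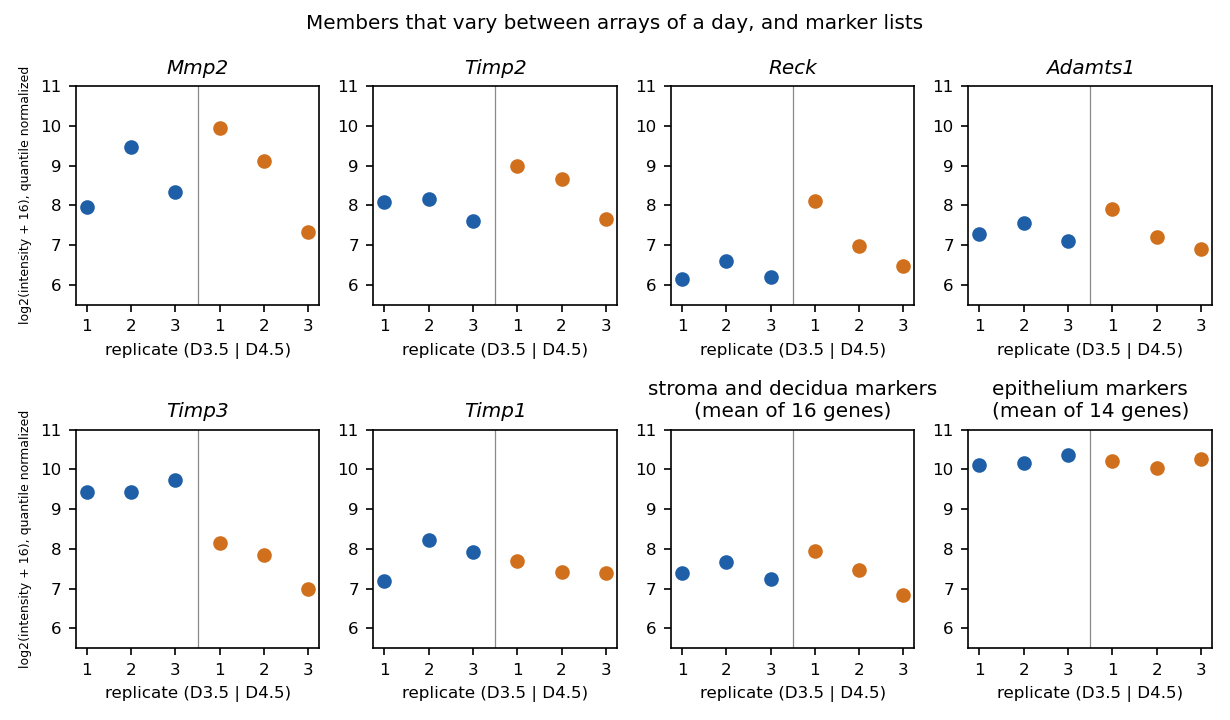
Level in each array (log2(intensity + 16) after quantile normalization) of 6 members and mean level of the stromal and epithelial marker lists, by replicate, with D3.5 in blue and D4.5 in orange. Mmp2, Timp2, Reck and Adamts1 are high in D4.5 replicate 1 and low in replicate 3 as the stromal markers do (7.94, 7.47 and 6.85), while the epithelial markers stay between 10.04 and 10.36.

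Genes whose products activate metalloproteases or place them at the cell surface were described beside them. Of 26 such genes 12 rose and 6 fell (69.2% called, beside 44.4% of all genes), with a median change of 0.22 beside -0.07 for all genes. Of the 24 above receptor level on at least 1 day, 12 rose and 5 fell, beside 3533 and 3985 of 14741 such genes in all. This list and those below were chosen with earlier results of these data known, so their shares of calls are not independent evidence. The proprotein convertase gene Pcsk6 rose by 3.90 ± 0.13, Pcolce2, an enhancer of procollagen C-proteinases such as Bmp1 and Tll1, by 2.59 ± 0.09 (from 6.19 ± 0.06 to 8.78 ± 0.14), and Rhbdf1, an iRhom that carries Adam17 to the surface, by 1.07 ± 0.09. Tspan15, a tetraspanin partner of Adam10, fell from 7.94 ± 0.22 to 6.06 ± 0.15 (adjusted p = 6.50e-05), Tspan17, another partner of Adam10, changed by -0.46 ± 0.07, and Plg, the plasminogen gene, by -0.57 ± 0.08. The changes of Tspan17 and Plg lie within the range of the chemosensory receptor genes, and Plg was at receptor level on both days.

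Of 30 ligands and receptors that ADAM proteases release, 12 rose and 6 fell (60% called, median change 0.06). The receptor gene Met rose by 1.78 ± 0.19, the adhesion gene L1cam by 1.12 ± 0.08 and the EGF-family ligand gene Btc by 0.79 ± 0.09, while Notch1 (-1.19 ± 0.10), Nrg1 (-0.91 ± 0.09) and Notch3 (-0.45 ± 0.08) fell. Of 33 matrix proteins that are substrates of these proteases, 5 rose and 8 fell (39.4% called, below the 44.4% of all genes, median change -0.16). Spp1, the osteopontin gene and a known substrate of matrilysin, rose by 2.82 ± 0.32, and the laminin chain genes Lama3 and Lama1 by 2.04 ± 0.08 and 1.63 ± 0.11. Spp1 stood at 6.91, 6.79 and 6.66 on D3.5 and at 10.24, 9.75 and 8.82 on D4.5. On D4.5 it fell in the array order of the stromal markers, whose part in its rise was not tested. Acan (-0.51 ± 0.11), Col4a5 (-0.39 ± 0.07) and Chrd, the gene of the Tll1 and Bmp1 substrate chordin (-0.30 ± 0.08), fell. Among 16 other protease inhibitors and ADAMTS-like genes 2 rose and 3 fell (31.2% called, median change -0.17). Cst3, the cystatin C gene, rose by 0.90 ± 0.10 and Tfpi2 by 0.74 ± 0.08, whereas Adamtsl5 (-0.40 ± 0.07), Adamtsl1 (-0.26 ± 0.08) and Spock3 (-0.20 ± 0.07) fell. The changes of Notch3, Acan, Col4a5, Chrd, Adamtsl5, Adamtsl1 and Spock3 lie within the range of the chemosensory receptor genes. Acan, Adamtsl1 and Spock3 were also at receptor level on both days.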

How the data were processed

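Each of the 6 arrays measured luminal epithelium with biotin-labelled cRNA from 1 µg of total RNA. The authors deposited 1 linear intensity value per row and array. How that intensity was summarised is not given in the sources used here. Another table of these values, also deposited, differs on 1 row, which holds no member. Genes were named by the symbol column, and 25070 of 35556 rows with 1 symbol gave 21740 genes. All members matched the RefSeq gene table, 1 of them as a synonym. Of the members 78 had 1 row and 7 several. Within a symbol, the deviation of a row from the symbol's mean had a correlation of -0.00078 between the days and of 0.944 between D3.5 replicates 1 and 2, so the rows were averaged on each array. Intensity + 16 was taken to log2 and quantile normalized over all rows. The days were compared over all 21740 genes in R 4.3.3 by limma 3.58.1 (lmFit, then eBayes, two-sided), with Benjamini-Hochberg adjustment and a threshold of 0.05, and the fit was tested on simulated data. Tables and figures were made with Python 3.11.15, pandas 2.3.3 and matplotlib 3.10.9. The members, the lists and the motifs were chosen with earlier results of these data known. Named are all MMPs, astacins and inhibitors, ADAM and ADAMTS genes past the threshold above receptor level, of the others of each family the highest and the one with the smallest p, and from each partner list up to 3 genes per direction. Adam2 to Adam4, Adam6a, Adam12, Adam15, Adam17, Adam19, Adam33 and the ADAMTS genes beyond this rule were chosen after their values were seen. Alternatives were median centring, no normalization, constants of 1 and 64, other choices of rows, only genes with 1 row or above the median level, a robust eBayes with a trend, weighted arrays, a block for the replicate number, and 1 array fewer.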

Additional observations from a re-analysis of the deposited data

How the results depend on the processing

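The 7 members that changed at least 2-fold kept their direction and an adjusted p under 0.05 in every alternative that tested them. Of 872 results of 50 named members under 18 alternatives, 799 kept direction and call or were without a call in both. Of the rest, 30 lost the call, 30 gained it and 13 changed sign with a call on at least 1 side. In the values as deposited 4 members rose and 65 fell (6 of these by at least 2-fold), and of all genes 2483 rose and 13431 fell. Among genes above the median level, where 32 members were tested, 9 fell, beside 2883 of all genes tested there. With a call on at least 1 side, signs changed in the values as deposited for Adam8 (-0.16), Mmp8 (-0.018), Mmp10 (-0.50), Mmp13 (-0.41), Mmp17 (-0.35), Mmp23 (-0.26) and Tll2 (-0.33). With median centring they did so for Adam9 (0.028), Adam10 (0.28) and Adam17 (0.32). They also did so with the row of the highest mean for Adamts17 (-0.53) and Mmp24 (0.62), and Adamts17 passed there in the opposite direction to its main call. The last was Adamts17 (-0.048) with the highest row of each day, added after seeing the data like the lowest row. Signs also changed for members without a call on either side, such as Mmp14 with median centring (0.28) and Adamts1 in the values as deposited (-0.26). The cause was not tested. Leaving out 1 array gave 7 to 10 members higher and 16 to 25 lower, 4 to 5 and 3 of them by at least 2-fold. Of all genes it gave 2946 to 4065 higher and 3616 to 5723 lower, beside 3914 and 5737 with all arrays. With the replicate number as a block, 8 members rose and 20 fell, beside 3530 and 4753 of all genes. Deviations of same-numbered arrays correlated with -0.06, 0.06 and 0.10, and not every array correlated best with its own number, so the numbers are not known to pair the samples.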
